A study of Mus musculus with 8 samples.

Results

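The insulin-like growth factor (IGF) genes described here are the ligands Igf1 and Igf2, the receptors Igf1r and Igf2r, the receptor substrate Irs1, and the binding proteins Igfbp2, Igfbp3, Igfbp4 and Igfbp5. They were chosen by symbol. The rule named 10 genes and asked for array rows annotated with exactly 1 gene symbol, taking the row with the highest mean where a symbol has several. It found 9 of the 10, each on 1 row, among 14351 genes with a symbol of their own, and Irs2 was not analysed here. All 9 were tested, since no filter on low values was applied.

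RNA was measured on 8 whole-transcript arrays, 1 per sample. In 2 samples the RNA came from granule neuron precursors (GNPs), the dividing precursors of cerebellar granule neurons, of postnatal day 8 mice carrying Gli1-FLAG at the Rosa locus and switched on by Math1-Cre. Another 2 samples were GNPs of postnatal day 8 Ptc+/- mice, which lack 1 working copy of the hedgehog receptor gene and carry no transgene. The other 4 samples were medulloblastomas of adult mice with Gli1-FLAG, Math1-Cre and Ptc+/- together. Math1-Cre acts in the granule lineage, so the transgene is on in GNPs and in the tumours that descend from them. Tumours differ from both GNP groups in age, in preparation and in genotype as well as in disease, and these cannot be told apart. The labels call the replicates biological and do not tell whether they are separate animals, and the p-values describe the spread among these samples, which may be technical.

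IGF1 and IGF2 bind the receptor tyrosine kinase encoded by Igf1r, which signals through IRS proteins to PI3-kinase, AKT and mTOR. The protein encoded by Igf2r has no kinase and clears IGF2 into lysosomes, and the IGF-binding proteins hold the ligands outside cells and limit or prolong their action. In the cerebellum IGF signalling acts together with Sonic hedgehog on the division of GNPs, and mouse work has tied Igf2 to the growth of hedgehog-driven medulloblastoma.

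Levels are log2(intensity + 1) after quantile normalization, and a difference is between such levels. Intensities of different genes depend on their probes and are not compared. Median deposited intensity ran from 109 to 310 over the arrays, and once normalized, replicates of a row had a median SD of 0.0899 (the Gli1-FLAG GNPs), 0.14 (Ptc+/- GNPs) or 0.299 (tumours). Gli1 was at 9.24 to 9.38 in Ptc+/- GNPs, 10.08 to 10.19 in the Gli1-FLAG GNPs and 10.42 to 10.90 in tumours. The 10 measured markers of granule precursors had a summed intensity of 20100 to 21900 in the 4 GNP samples and 21500 to 27300 in the tumours. Atoh1, the transcription factor gene that defines GNPs, was at 9.03 to 9.43 in the GNP samples and 10.84 to 11.99 in the tumours, and Zic1 was at 11.32 to 11.99 throughout. The list did not move as one: 5 of the 10 rose and 1 fell against Ptc+/- GNPs, and 4 rose and 0 fell against the Gli1-FLAG GNPs. The one that fell was Pax6 (-1.38; adjusted p = 0.0373). Of all rows 7.54% rose and 8.92% fell against Ptc+/- GNPs, and 4.65% rose and 5.63% fell against the Gli1-FLAG GNPs. Neurod1 (-1.08; adjusted p = 0.0527) and Zic2 (-0.44; adjusted p = 0.131) did not pass against Ptc+/- GNPs, though every tumour lay below every GNP array for both. Ptc+/- GNP replicates 1 and 2 stood apart from each other in markers of meninges, vessel walls, endothelium and astrocytes, which bears on several values below.

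Against 1 or both GNP groups the tumours differed in a ligand, a receptor, the receptor substrate and some of the binding proteins, in both directions. Irs1 and Igfbp3 rose and Igfbp4 fell against each GNP group. Igf2r and Igfbp5 fell against Ptc+/- GNPs, Igf1 rose against the Gli1-FLAG GNPs, and Igf1r, Igf2 and Igfbp2 did not pass in any comparison. In limma's fit with Benjamini-Hochberg adjustment over all rows, 5 of the 9 genes passed for tumours against Ptc+/- GNPs, 2 rising and 3 falling. Of all 16317 rows 16.5% passed there, 7.54% rising and 8.92% falling. Against the Gli1-FLAG GNPs 4 of 9 passed, 3 rising and 1 falling, where 10.3% of all rows passed (4.65% rising and 5.63% falling). At an unadjusted p under 0.05 the counts were 7 and 6 of 9 genes, beside 33.3% and 28.2% of all rows. The median difference of the 9 genes was -0.20 and -0.25, and that of all rows 0.01 and 0.00. The genes that passed in both comparisons numbered 3, against 8.72% of all rows. Because the tumour arrays are in both comparisons, these do not support each other.

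**Figure D1:**
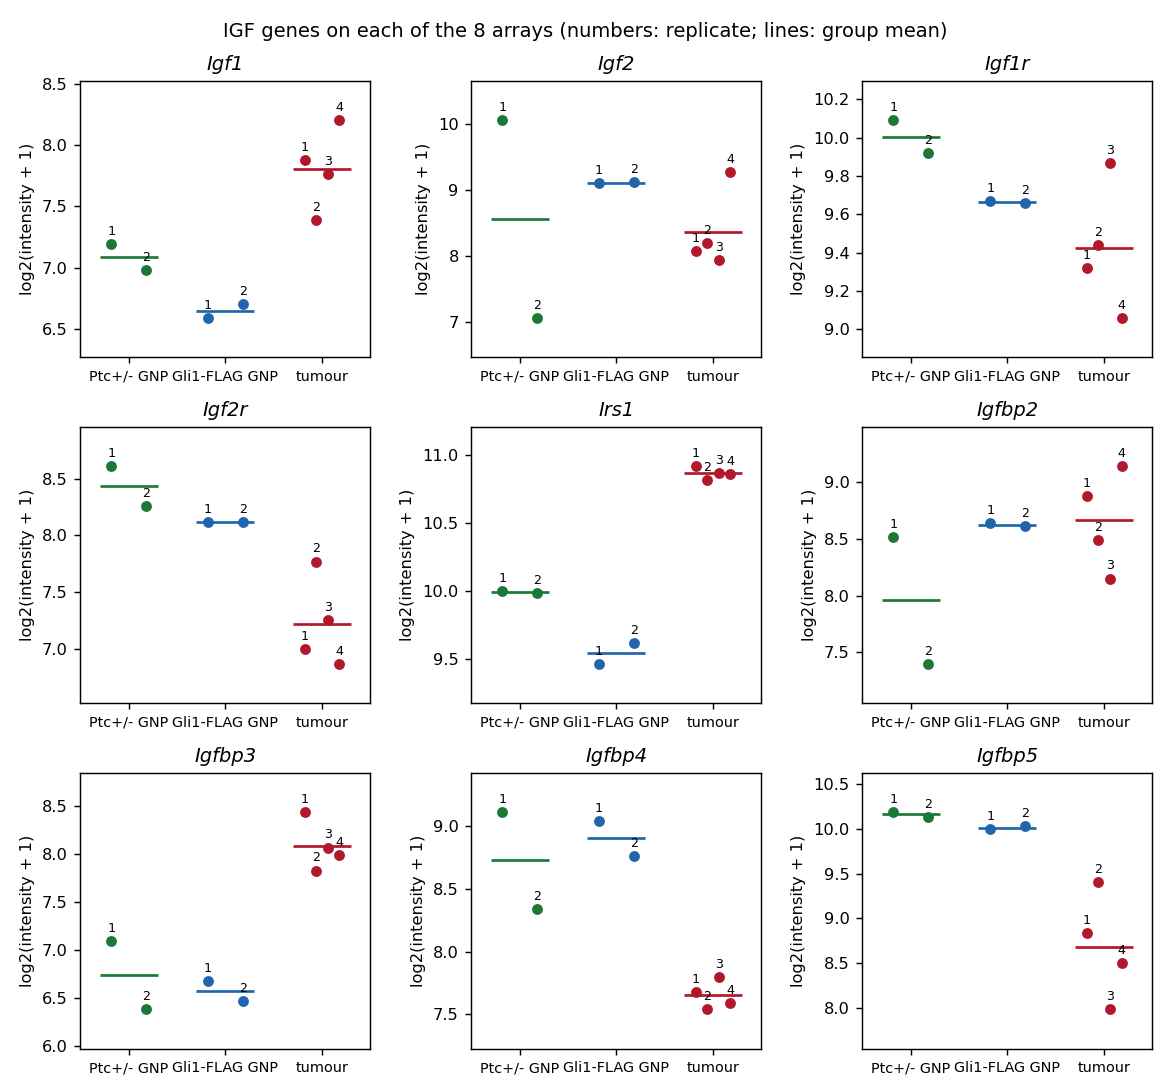
Level of each IGF gene as log2(intensity + 1) on each of the 8 arrays, by group, with replicate numbers beside the points and group means as lines. The 4 tumours lie above all 4 GNP arrays for Igf1, Irs1 and Igfbp3 and below them for Igf2r, Igfbp4 and Igfbp5, and Ptc+/- GNP replicates 1 and 2 lie at 10.06 and 7.06 for Igf2.

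All 4 tumour arrays lay above all 4 GNP arrays for 3 of the 9 genes and below them for another 3. Together these are 6 of 9 genes, beside 31.2% of all rows (14.7% above and 16.5% below). The gap between the nearest tumour and the nearest GNP array was 0.81 log2 units for Irs1, 0.74 for Igfbp3, 0.59 for Igfbp5, 0.54 for Igfbp4, 0.35 for Igf2r and 0.20 for Igf1. In the plot of levels by array, Igf2, Igf1r and Igfbp2 are the genes whose tumours overlap the precursors.

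Since the series looks for genes that Gli1 may act on directly, the stretch upstream of the start was read for the 3 genes called in both comparisons, and the core of the GLI binding motif was searched in all of them. The sequences are the 250 bases before the RefSeq start in build GRCm38.p6, 5′ to 3′ on the gene's strand, with each copy of CCACCC or its reverse GGGTGG in capitals.
Irs1, chr1:82291440-82291689, minus strand: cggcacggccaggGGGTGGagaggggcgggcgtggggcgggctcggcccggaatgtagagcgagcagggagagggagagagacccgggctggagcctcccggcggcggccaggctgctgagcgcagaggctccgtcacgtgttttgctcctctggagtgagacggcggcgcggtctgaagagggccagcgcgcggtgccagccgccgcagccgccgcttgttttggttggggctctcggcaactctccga
Igfbp3, chr11:7213924-7214173, minus strand: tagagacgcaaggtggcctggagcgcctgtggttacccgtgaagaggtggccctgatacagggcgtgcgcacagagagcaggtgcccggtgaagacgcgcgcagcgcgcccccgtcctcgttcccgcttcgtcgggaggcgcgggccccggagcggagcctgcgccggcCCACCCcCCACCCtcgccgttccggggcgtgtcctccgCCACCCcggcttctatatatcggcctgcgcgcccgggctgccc
Igfbp4, chr11:99040994-99041243, plus strand: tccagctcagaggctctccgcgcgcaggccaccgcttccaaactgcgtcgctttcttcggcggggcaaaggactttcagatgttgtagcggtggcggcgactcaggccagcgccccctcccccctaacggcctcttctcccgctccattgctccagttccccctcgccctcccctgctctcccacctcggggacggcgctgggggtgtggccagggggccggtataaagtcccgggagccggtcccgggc
The core begins 81, 74 and 43 bases before the start of Igfbp3 and 237 bases before that of Irs1, and the Igfbp4 stretch holds none. RefSeq lists 13 promoters for the 9 genes, and 7 of them hold the core, among them both of Igfbp2, 2 of the 4 of Igf2 and that of Igfbp5. The core is short and occurs in 28.1% of all 32851 promoter stretches of this length. The longer GLI consensus GACCACCCA (reverse TGGGTGGTC), which overlaps the core, was in 0.225% of all stretches and in none of these 13. A TATA box (TATAAA or its reverse TTTATA) was in 12.4% of all and, among the 13, in that of Igfbp4. A match is a description of the letters, and binding of Gli1 was not measured in these arrays.

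Igf1, the ligand whose main kinase receptor is Igf1r, was highest in the tumours. It was at 7.88, 7.39, 7.76 and 8.20 in tumours 1 to 4, at 7.19 and 6.98 in Ptc+/- GNPs, and at 6.59 and 6.70 in the Gli1-FLAG GNPs. The 3 groups did not overlap, with tumours above Ptc+/- GNPs and these above the Gli1-FLAG GNPs. Against the Gli1-FLAG GNPs the level rose by 1.16 (SE 0.23; 2.24-fold; adjusted p = 0.0253), and against Ptc+/- GNPs the difference of 0.72 (SE 0.23) missed the threshold (adjusted p = 0.0679). The 2 GNP groups differed by -0.44 (SE 0.26; adjusted p = 1), Gli1-FLAG being lower. The rise was lost without Gli1-FLAG GNP replicate 1 (adjusted p = 0.215) or 2 (0.168), without tumour 1 (0.0577), with the replicate number as a block (0.065), and with the arrays of these groups alone (0.0508). The comparison with Ptc+/- GNPs passed without tumour 2 (adjusted p = 0.0312), with a filter on dim rows (0.0469) and with array weights per group (0.0403).

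Of the markers of microglia and macrophages, which make IGF1, some rose in the tumours and others did not. The 13 measured had a summed intensity of 1910 to 2520 in GNP samples and of 7500, 4910, 3730 and 8630 in tumours 1 to 4. In both tumour comparisons 4 of the 13 rose, and 1 fell against the Gli1-FLAG GNPs. Those that rose were C1qa, C1qb, C1qc and Cd68, and P2ry12 fell (-1.28; adjusted p = 0.045). Over all rows 7.54% rose against Ptc+/- GNPs, and 4.65% rose and 5.63% fell against the Gli1-FLAG GNPs. Csf1r, the receptor gene that defines these cells, differed by -0.12 and -0.48 (adjusted p = 0.79 and 0.266), and Mrc1 by -0.89 and -0.41 (0.0747 and 0.384). The complement gene C1qc, for one, was at 8.52 to 8.95 in GNP samples and at 11.15, 10.46, 10.03 and 11.22 in tumours 1 to 4. Igf1 and this sum were both highest in tumour 4 and next in tumour 1, while tumours 2 and 3 came in opposite orders. Among GNP samples Igf1 was higher in Ptc+/- than in Gli1-FLAG arrays. The sums there were 2300 and 1910 beside 2520 and 2220. The part of these cells in the Igf1 difference was not tested. In bulk RNA, fewer cells of a type and less RNA per cell cannot be told apart.

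Igf2, the growth factor gene that is expressed from the paternal copy in most tissues and is most active before birth, showed no difference between groups that exceeded its spread. Its level was 10.06 and 7.06 in Ptc+/- GNP replicates 1 and 2, 9.11 and 9.12 in the Gli1-FLAG GNPs, and 8.07, 8.19, 7.94 and 9.27 in tumours 1 to 4. Both extremes of the 8 arrays were thus Ptc+/- GNP samples, 3.0 log2 units or 8.02-fold apart, and every other sample lay between them. Tumour 4 lay above both Gli1-FLAG GNP arrays and the other tumours below them. Tumours differed from Ptc+/- GNPs by -0.20 (SE 0.76; adjusted p = 0.883) and from the Gli1-FLAG GNPs by -0.75 (SE 0.76; adjusted p = 0.558), and the GNP groups differed by 0.55 (SE 0.88; adjusted p = 1). The difference between tumours and Ptc+/- GNPs became 1.30 without replicate 1 (adjusted p = 0.222) and -1.69 without replicate 2 (0.109). That between the GNP groups became 2.04 and -0.95 (adjusted p = 1 in each).

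The gap between the 2 Ptc+/- GNP samples was already in the deposited intensities, at 1623 and 87 for Igf2 on arrays with medians of 283 and 125. It placed Igf2 at the 91.7 percentile of rows on 1 array and the 44.7 percentile on the other. Only 20 of the 16317 rows differed more between these arrays, and the median absolute difference was 0.20. Among the other IGF genes Igfbp2 (-1.12), Igfbp4 (-0.77) and Igfbp3 (-0.71) were also lower in replicate 2, while Irs1 (-0.01) and Igfbp5 (-0.05) were level.

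Markers of connective tissue, vessels and astrocytes followed the same split, and those of the oligodendrocyte lineage and choroid plexus did not. In replicate 2, 11 of 13 markers of meninges and fibroblasts, 11 of 11 of pericytes and mural cells and 12 of 12 of endothelium were lower than in replicate 1, with median differences of -1.11, -1.04 and -1.27. Of the astrocyte and Bergmann glia markers 8 of 8 were lower (median -0.56), and of the microglia markers 10 of 13 (median -0.27). Of the oligodendrocyte lineage markers 3 of 8 were lower (median 0.17), and of the choroid plexus markers 3 of 6 (median -0.07). Over all rows 48.2% were lower in replicate 2, and of the 10 granule precursor markers 3 were, with a median of 0.16. Dcn, which encodes the matrix proteoglycan decorin, was at 8.91 and 5.13 in the Ptc+/- GNP arrays, at 7.94 and 7.85 in the Gli1-FLAG GNPs and at 7.67 to 8.04 in the tumours. Lum, the gene of the related proteoglycan lumican, was at 6.78 and 3.31 in the Ptc+/- arrays. Summed intensity of the meninges and fibroblast list was 3290 and 1710 in the Ptc+/- arrays, 2380 to 2450 in the Gli1-FLAG GNPs and 1690 to 1970 in the tumours, and no marker of these lists was listed at 0. Meninges are a known site of Igf2 expression in the brain, and the part of these cells in the Igf2 values was not tested.

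**Figure D2:**
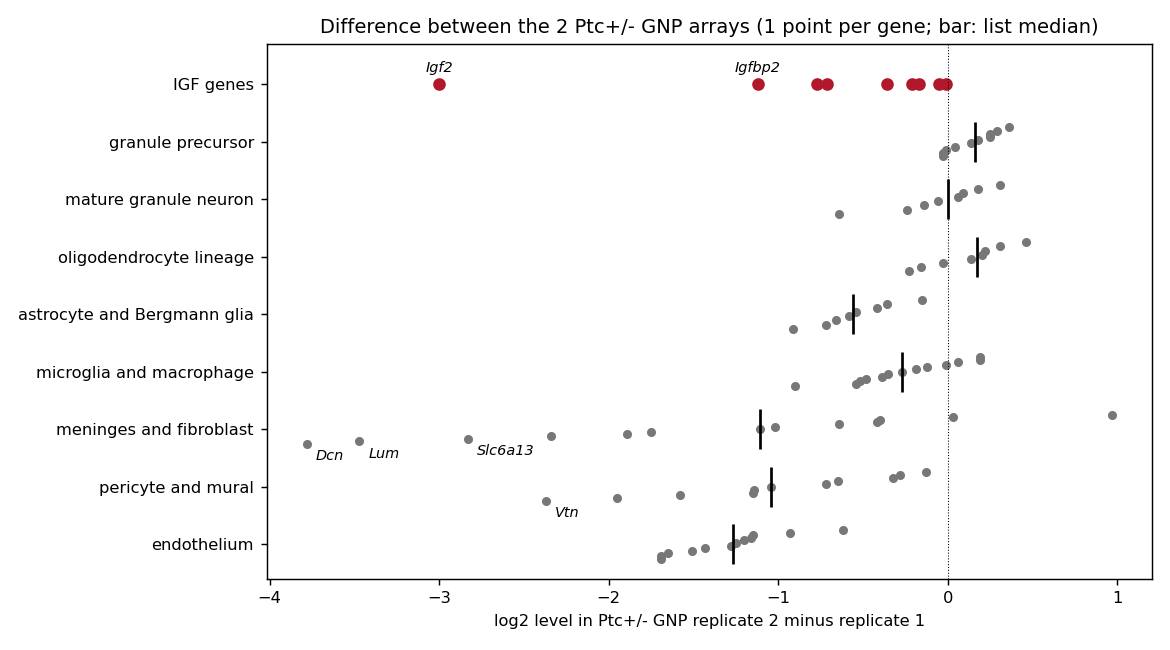
Difference in log2 level between Ptc+/- GNP replicate 2 and replicate 1, with 1 point per gene, for the 9 IGF genes and for marker lists of cell types, whose medians are drawn as bars. Igf2 at -3.0 lies among the lowest markers of meninges and fibroblasts, such as Dcn at -3.78 and Slc6a13 at -2.83, while the granule precursor list has a median of 0.16.

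Igf1r, which encodes the kinase receptor for both ligands, did not pass in any comparison. It was at 10.09 and 9.92 in Ptc+/- GNPs, at 9.67 and 9.66 in the Gli1-FLAG GNPs, and at 9.32, 9.44, 9.87 and 9.06 in tumours 1 to 4. All tumours lay below both Ptc+/- arrays, and tumour 3 lay above the Gli1-FLAG arrays. Tumours differed from Ptc+/- GNPs by -0.58 (SE 0.22; adjusted p = 0.117), and this passed without tumour 3 (-0.73; adjusted p = 0.0335). They differed from the Gli1-FLAG GNPs by -0.25 (SE 0.22; adjusted p = 0.511).

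Igf2r, the clearance receptor gene, fell in tumours to less than its level in any precursor sample. The tumours were at 7.0, 7.77, 7.25 and 6.87, Ptc+/- GNPs at 8.61 and 8.26, and the Gli1-FLAG GNPs at 8.12 on both arrays. Against Ptc+/- GNPs the level fell by 1.21 (SE 0.26; 2.32-fold; adjusted p = 0.0247), and against the Gli1-FLAG GNPs the difference of -0.90 (SE 0.26) missed the threshold (adjusted p = 0.0724). Tumour 2, the highest of the 4, was also the tumour with the highest summed intensity of mature granule neuron markers, and the order of the 4 tumours was the same in both (16400 in tumour 2, 8260 in tumour 3, 7320 in tumour 1 and 3510 in tumour 4). The GNP samples did not follow that order, with sums of 5670 to 6140, below tumours 1 to 3, and higher Igf2r than any tumour. By the mean log2 level of the list, 9.46, 10.8, 9.15 and 7.46 in tumours 1 to 4, tumours 1 and 3 changed places. None of its 8 measured markers passed in either tumour comparison. Whether that list has a part in the Igf2r level was not tested. The comparison with the Gli1-FLAG GNPs passed without tumour 2 (adjusted p = 0.0267) and with array weights per group (0.0192), and just passed with a filter on dim rows. The fall against Ptc+/- GNPs was lost without Ptc+/- replicate 1 (adjusted p = 0.184) or 2 (0.0832), either Gli1-FLAG array (0.0552 for each), tumour 1 (0.0555), with the replicate block (0.0969) and with the arrays of these groups alone (0.0557).

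Irs1 encodes the docking protein that couples the activated IGF1 and insulin receptors to PI3-kinase, and Sonic hedgehog is known to stabilise that protein in GNPs. It was the most even of the 9 genes among tumours, at 10.92, 10.82, 10.87 and 10.86. Ptc+/- GNPs were at 10 and 9.99 and the Gli1-FLAG GNPs at 9.47 and 9.62. The 3 groups did not overlap, and the SD was 0.04 in tumours (n = 4), 0.01 in Ptc+/- GNPs (n = 2) and 0.10 in the Gli1-FLAG GNPs (n = 2). Irs1 rose by 0.87 against Ptc+/- GNPs (SE 0.13; 1.83-fold; adjusted p = 0.00894) and by 1.32 against the Gli1-FLAG GNPs (SE 0.13; 2.50-fold; adjusted p = 0.0029). It stood at the 97.1 to 97.5 percentile of rows in tumours and at 83.9 to 91.0 in GNP samples. Between the GNP groups it was lower in Gli1-FLAG by 0.45 (SE 0.15), with an unadjusted p of 0.0175 and an adjusted p of 1. The first rise was lost without Ptc+/- replicate 1 (adjusted p = 0.0883) or 2 (0.0605), and the second without Gli1-FLAG replicate 1 (0.0739) or 2 (0.0502), with differences of 0.87 to 0.90 and of 1.25 to 1.39. The first is also under a 2-fold minimum.

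**Figure D3:**
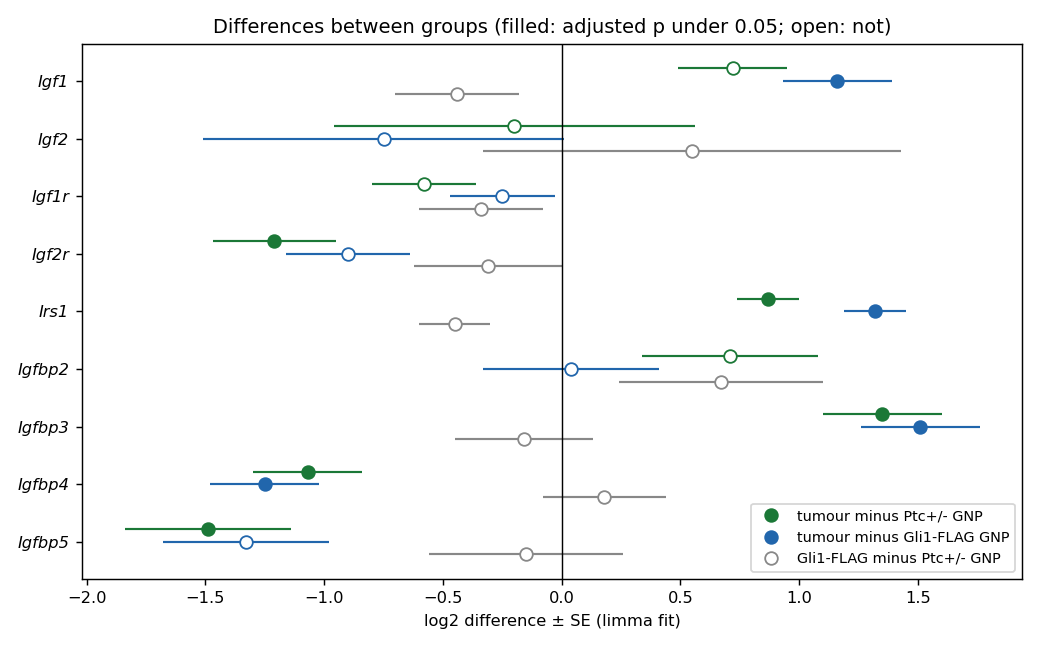
Log2 difference with its standard error from limma's fit for each IGF gene in the 3 comparisons, filled where the adjusted p was under 0.05. Irs1 and Igfbp3 lie to the right and Igfbp4 to the left with filled points in both tumour comparisons, and the points comparing the GNP groups are open.

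The binding proteins went different ways. Igfbp3, the gene of the main IGF carrier of serum, rose. It was at 8.44, 7.83, 8.07 and 7.99 in tumours 1 to 4, at 7.09 and 6.38 in Ptc+/- GNPs and at 6.68 and 6.47 in the Gli1-FLAG GNPs. The GNP groups overlapped each other and lay below every tumour. The level rose by 1.35 against Ptc+/- GNPs (SE 0.25; 2.54-fold; adjusted p = 0.016) and by 1.51 against the Gli1-FLAG GNPs (SE 0.25; 2.85-fold; adjusted p = 0.0161). Without Ptc+/- replicate 1 or 2 the first became 1.67 (adjusted p = 0.0566) and 0.98 (0.0963), and without Gli1-FLAG replicate 1 or 2 the second had an adjusted p of 0.144 and 0.152. The difference between the GNP groups, -0.16 (SE 0.29; adjusted p = 1), was 0.18 without Ptc+/- replicate 1.

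Igfbp4 encodes a binding protein that mostly inhibits IGF action until the protease PAPP-A cleaves it. It fell to a narrow band in tumours, at 7.68, 7.54, 7.80 and 7.59, from 9.11 and 8.34 in Ptc+/- GNPs and 9.04 and 8.76 in the Gli1-FLAG GNPs. Both GNP groups overlapped and lay above the tumours. The falls were 1.07 (SE 0.23; 2.10-fold; adjusted p = 0.0235) against Ptc+/- and 1.25 (SE 0.23; 2.38-fold; adjusted p = 0.0216) against the Gli1-FLAG GNPs. The first was lost without Ptc+/- replicate 1 (-0.68; adjusted p = 0.165), without either Gli1-FLAG array (0.0505 each) and with the arrays of these groups alone (0.0512). The second was lost without Gli1-FLAG replicate 1 (0.212) or 2 (0.135) or tumour 1 (0.0504). The GNP groups differed by 0.18 (SE 0.26; adjusted p = 1), and by -0.21 without Ptc+/- replicate 2.

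The endothelial markers moved with Igfbp4 as a sum, though not each of them did. Their summed intensity was 6330 and 2450 in Ptc+/- GNPs, 3890 and 3920 in the Gli1-FLAG GNPs and 1160 to 1410 in the tumours. Of the 12 markers 7 fell against Ptc+/- GNPs and 6 against the Gli1-FLAG GNPs, beside 8.92% and 5.63% of all rows. The rest did not pass. Among them Flt1 differed by -0.11 from Ptc+/- GNPs (adjusted p = 0.854) and was at 7.27 in tumour 2, beside 6.31 to 7.15 in GNP samples. Cdh5 was at 8.68 in tumour 3 and at 6.52 to 6.62 in the other tumours. Kdr, the VEGF receptor gene of endothelium, was at 10.03 and 8.60 in Ptc+/- GNPs, 9.14 and 9.04 with Gli1-FLAG, and 6.09, 6.03, 6.12 and 6.91 in tumours 1 to 4. Igfbp4 and the sum of these markers were both highest in Ptc+/- GNP replicate 1 and low in every tumour. The part of these markers in the fall of Igfbp4 was not tested.

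Igfbp5, whose protein also binds extracellular matrix, was nearly level over the precursors and spread widely in tumours. It was at 10.19 and 10.14 in Ptc+/- GNPs, at 10 and 10.03 in the Gli1-FLAG GNPs, and at 8.83, 9.41, 7.98 and 8.50 in tumours 1 to 4. Every tumour lay below every GNP sample. The fall against Ptc+/- GNPs was 1.49 (SE 0.35; 2.80-fold; adjusted p = 0.0311), and the difference of -1.33 (SE 0.35; 2.52-fold) against the Gli1-FLAG GNPs had an adjusted p of 0.0542. Tumour 3 was lowest and tumour 2 highest, and several marker lists had the same extremes. The summed intensity of oligodendrocyte lineage markers was 3550, 5770, 2320 and 3010 in tumours 1 to 4 and 2270 to 3730 in GNP samples. That of GABA interneuron markers was 973, 3150, 339 and 484 in the tumours and 913 to 969 in GNP samples. Both sums put the 4 tumours in the order of Igfbp5, but single markers did not all keep it. Of the 8 measured oligodendrocyte lineage markers 3 rose and 0 fell in each tumour comparison. Those that rose were Olig1, Olig2 and Pdgfra, with Pdgfra highest in tumour 3, at 10.53. Of the 7 measured interneuron markers 1 rose and 2 fell against Ptc+/- GNPs, and 0 rose and 2 fell against the Gli1-FLAG GNPs. Beside both lists, 7.54% of all rows rose and 8.92% fell in the first comparison, and 4.65% and 5.63% in the second. The summed intensity of the 8 measured astrocyte and Bergmann glia markers did not keep the full order. It was 3090, 6010, 400 and 4330 in tumours 1 to 4 and 2950 to 5490 in GNP samples. The mean log2 level of these markers did keep the order of Igfbp5, at 8.12, 8.84, 5.2 and 7.76 in tumours 1 to 4. None of the astrocyte markers passed in limma's fit (3 against Ptc+/- and 3 against the Gli1-FLAG GNPs at an unadjusted p under 0.05), and the part of any of these lists in the spread of Igfbp5 was not tested. The call against Ptc+/- GNPs was lost without every array but tumours 2 and 3, at adjusted p values from 0.0527 without tumour 4 to 0.177 without Ptc+/- replicate 1 (0.131 without replicate 2, 0.0633 and 0.0635 without the Gli1-FLAG arrays, 0.0599 without tumour 1), with the replicate block (0.0535) and with the arrays of these groups alone (0.0634). The comparison with the Gli1-FLAG GNPs passed without tumour 2 (0.0234) and with arrays centred on their medians (0.0364). It also passed with a filter on dim rows (0.0374), robust eBayes with a trend (0.0338), array weights per group (0.0108) and an offset of 16 (0.0376).

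Igfbp2, the gene of a binding protein abundant in the developing brain, did not pass. It was at 8.88, 8.49, 8.15 and 9.14 in tumours, at 8.64 and 8.61 in the Gli1-FLAG GNPs, and at 8.52 and 7.40 in Ptc+/- GNPs. Tumours spanned the Gli1-FLAG arrays and differed from them by 0.04 (SE 0.37; adjusted p = 0.956). They differed from Ptc+/- GNPs by 0.71 (SE 0.37; adjusted p = 0.224), with replicate 2 the lowest of the 8 arrays, and by 0.14 without that replicate.

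Leaving out arrays tested how far each call leaned on 1 sample. None of the 5 calls against Ptc+/- GNPs and none of the 4 against the Gli1-FLAG GNPs held whichever array was left out, since every one missed the threshold without at least 1 array of its control group, whose remaining array was assumed to vary like the other groups. Leaving out a GNP array keeps only 1 array of its group, and fewer of all rows passed in both tumour comparisons then too. Against Ptc+/- and Gli1-FLAG GNPs 2687 and 1677 rows passed with all arrays. Without tumour 1 these were 1751 and 802, and without tumour 2 they were 2345 and 1355. No call of an IGF gene changed direction in any setting. The number called against Ptc+/- GNPs was 0 without Ptc+/- replicate 1, 1 without replicate 2, 2 without either Gli1-FLAG array, 3 without tumour 1 and 6 without tumour 2. Against the Gli1-FLAG GNPs it was 0 without either Gli1-FLAG array, 2 without tumour 1 and 6 without tumour 2.

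**Figure D4:**
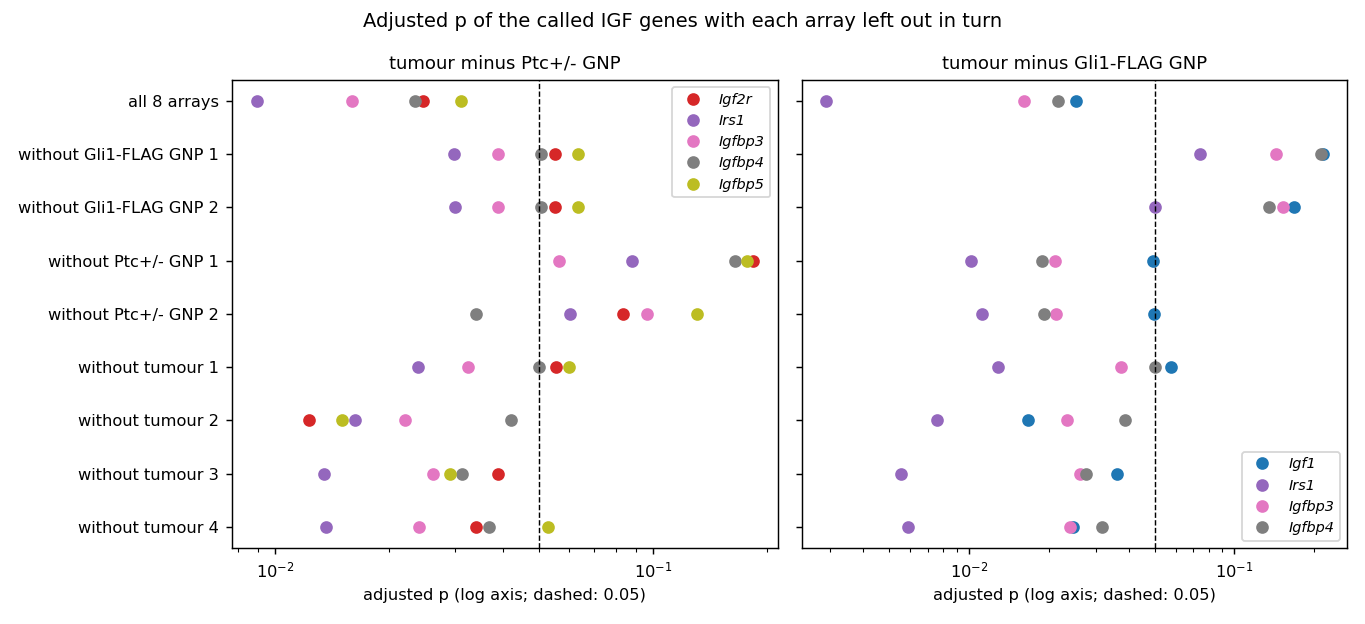
Adjusted p, on a log axis, of each called IGF gene with all 8 arrays and with each array left out, for both tumour comparisons, with a dashed line at 0.05. Each gene has a point to the right of the line for at least 1 array of its control group, while Igfbp4 stays to the left without Ptc+/- replicate 2 (0.034), and Irs1 has the lowest adjusted p of the called genes with all 8 arrays, 0.00894 and 0.0029.

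The 2 GNP genotypes, one with the Gli1 transgene and one with the Ptc alteration, were also compared with each other. None of the 9 genes passed in limma's fit, as none of the 16317 rows did (0%). At an unadjusted p under 0.05, 1 of the 9 (Irs1) and 3.22% of rows passed, and under the alternative settings the number of rows called ran from 0 to 4 with none of the 9 among them. The Gli1-FLAG GNPs lay below Ptc+/- GNPs on all arrays for Igf1, Igf1r, Igf2r, Irs1 and Igfbp5 and above them for Igfbp2, or 6 of 9 genes. Of all rows 46.3% were apart in this way, 24% below and 22.3% above.

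The rest of the pathway was read from a list of 76 genes of IGF and insulin signalling, of which 57 were measured. Against Ptc+/- GNPs 7 rose, 5 fell and 45 did not pass, a share of 21.1% where 16.5% of all rows passed, with a median of -0.01. Against the Gli1-FLAG GNPs 5 rose, 3 fell and 49 did not pass, or 14% beside 10.3% of all rows. Between the GNP groups none of the 57 passed in limma's fit, and 1 did at an unadjusted p under 0.05.

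Of 14 measured adaptor and feedback genes 2 rose, 1 fell and 11 did not pass in each tumour comparison, a share of 21.4% beside the 16.5% and 10.3% of all rows. Grb10, an imprinted gene whose product restrains insulin and IGF1 receptor signalling, was at 8.51 and 7.90 in Ptc+/- GNPs, 7.80 and 7.71 in the Gli1-FLAG GNPs and 5.87, 6.48, 5.84 and 5.64 in tumours. It fell by 2.25 (SE 0.27; 4.76-fold; adjusted p = 0.0051) and by 1.80 (SE 0.27; adjusted p = 0.0125). Sh2b1 and Sh2b2, which encode adaptors that bind activated insulin receptors, rose by 0.98 (adjusted p = 0.00861) and 0.93 (adjusted p = 0.0134) against Ptc+/- GNPs and by 0.81 and 0.83 against the Gli1-FLAG GNPs.

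Igf2bp3, whose product binds Igf2 mRNA, fell in the tumours, while Igf2bp1, the other measured gene of that class, differed by -0.11 (adjusted p = 0.599). Igf2bp3 was at 7.65 and 7.57 in Ptc+/- GNPs, 7.0 and 6.90 in the Gli1-FLAG GNPs and 5.14, 5.32, 5.70 and 5.47 in tumours. The 3 groups did not overlap, and the falls were 2.21 (SE 0.18; adjusted p = 0.0014) and 1.54 (SE 0.18; adjusted p = 0.00555). Ghr, the growth hormone receptor gene, through which growth hormone induces Igf1 in liver, fell by 1.72 (SE 0.19; adjusted p = 0.00402) and 1.65 (adjusted p = 0.00513).

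Downstream, 2 of 11 measured genes of the PI3-kinase and AKT class rose and 1 fell against Ptc+/- GNPs. Akt1, a kinase gene at the centre of the pathway, rose by 0.68 (adjusted p = 0.0193), Pik3ip1, which encodes an inhibitor of PI3-kinase, by 1.19 (adjusted p = 0.0109), and Pik3r3, a regulatory subunit gene, fell by 0.90 (adjusted p = 0.0348). Akt1 and Pik3ip1 also rose against the Gli1-FLAG GNPs, by 0.73 (adjusted p = 0.0222) and 1.10 (adjusted p = 0.0176). Of 4 genes that encode FOXO transcription factors, Foxo6 rose in the tumours. It was at 6.15 and 6.50 in Ptc+/- GNPs, 6.22 and 6.07 in the Gli1-FLAG GNPs, and 8.12, 8.52, 8.77 and 8.71 in tumours. Its rises were 2.21 (SE 0.22; 4.62-fold; adjusted p = 0.00302) and 2.39 (SE 0.22; 5.23-fold; adjusted p = 0.00228). Of 12 measured mTOR and GSK3 genes only Tsc2, which restrains mTOR, passed against Ptc+/- GNPs, rising by 0.61 (adjusted p = 0.0354), and of 3 RAS and ERK genes Map2k2, a MEK gene, which rose by 0.65 (adjusted p = 0.0352). Stc1, the gene of a secreted glycoprotein and the only one of 7 other binding or processing genes to pass, fell by 1.66 (adjusted p = 0.0496), to 3.29 to 5.01 in the tumours.

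The calls of these genes against Ptc+/- GNPs were kept in 162 of 215 pairs of gene and alternative setting and lost in 53. Of the 12, those of Foxo6 and Igf2bp3 held whichever array was left out. The others were lost without Ptc+/- replicate 1, at adjusted p values from 0.0566 for Ghr to 0.244 for Stc1, and all of these but Ghr and Grb10 also without replicate 2. Stc1, Akt1, Pik3r3, Tsc2 and Map2k2 lost theirs without either Gli1-FLAG array too (0.0527 to 0.0844), and Stc1, Pik3r3, Tsc2 and Map2k2 without tumour 1 or 2 (0.0541 to 0.0827), and Stc1 without tumour 4 (0.0627). Against the Gli1-FLAG GNPs the call of Foxo6 alone of the 8 held without each array, the other 7 being lost without either Gli1-FLAG array (0.0735 to 0.238) and that of Sh2b2 also without Ptc+/- replicate 2 (0.0503) or tumour 1 (0.0556). With the replicate block the calls of Akt1 (0.0548) and Map2k2 (0.0544) against Ptc+/- GNPs were lost, and against the Gli1-FLAG GNPs those of Grb10 (0.066), Akt1 (0.0643), Sh2b2 (0.0521) and Sh2b1 (0.0501). With the arrays of the compared groups alone, Stc1, Akt1, Pik3r3, Tsc2 and Map2k2 lost theirs against Ptc+/- GNPs (0.0522 to 0.0857) and Sh2b2 against the Gli1-FLAG GNPs (0.051).

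**Figure D5:**
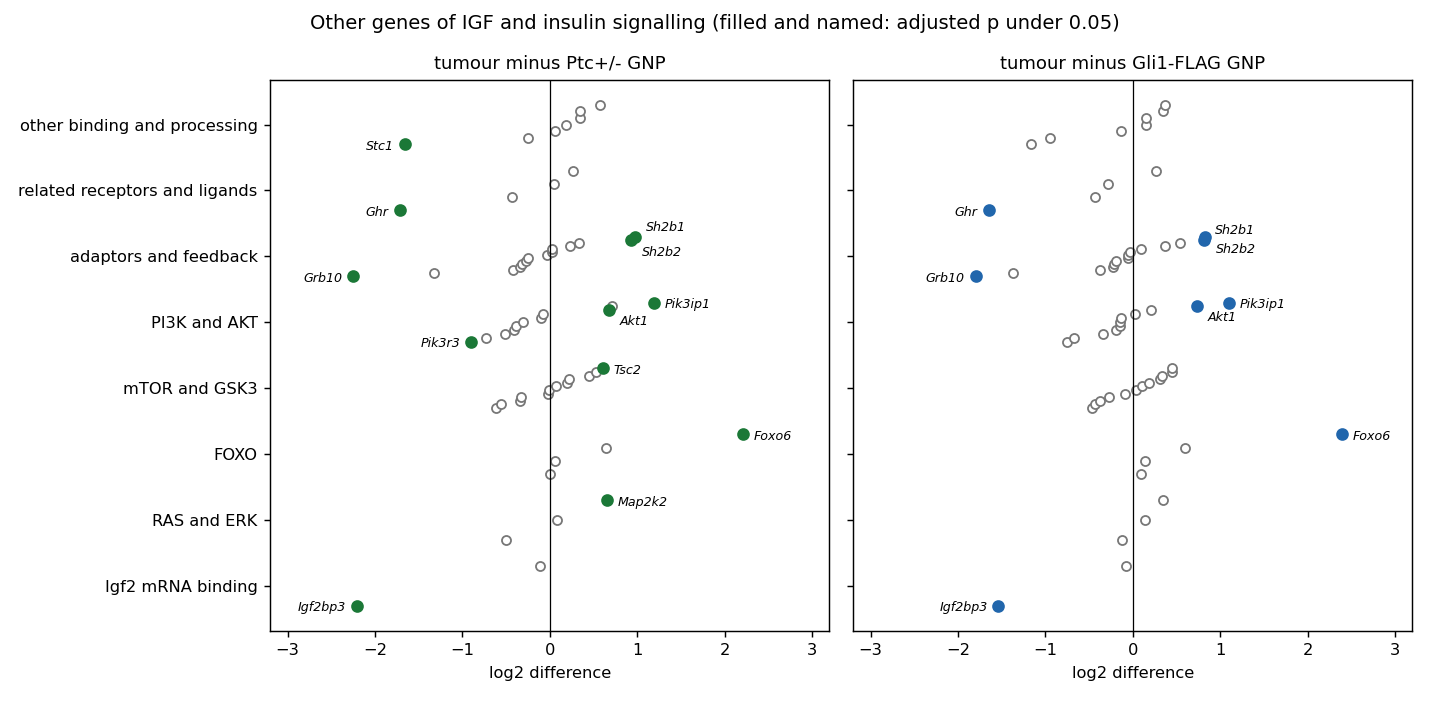
Log2 difference of tumours from Ptc+/- GNPs (left) and from the Gli1-FLAG GNPs (right) for the 57 other measured genes of IGF and insulin signalling, by class, with genes of adjusted p under 0.05 filled and named. Grb10, Igf2bp3 and Ghr lie on the left and Foxo6 farthest to the right in both panels, and most genes lie near 0.

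The genes most alike in pattern were sought among all others by the root mean square difference of the log2 levels over the 8 arrays, each gene centred on its own mean. Nearest to Irs1 were Btbd11 (0.104), Igdcc4 (0.117) and Mogs (0.123), where Irs1 itself varied about its mean by 0.572. Nearest to Igfbp3 were Slfn4 (0.14), Rftn2 (0.224) and Mogs (0.226), beside its own 0.757, and nearest to Igfbp4 were P4ha3 (0.145), Acot2 (0.148) and Robo4 (0.153), beside 0.623. Igf1 had Lap3 (0.114) and Pold1 (0.127) nearest, Igf2r Ppm1l (0.139) and Mef2c (0.149), Igf1r Clasp2 (0.0833) and Egln1 (0.0858), Igfbp5 Adarb2 (0.191) and Tdrp (0.198), and Igfbp2 Cmtm8 (0.21) and Pla2g1b (0.22), beside its own 0.49. Those of Igf2 were Olfr1321 (0.4), Olfr1370 (0.404) and Clec1a (0.41), beside its own 0.894. These 3 were dim rows, at levels of 2.17 to 5.45, as was Pla2g1b at 3.31 to 4.54. Whether they exceed background is unknown. These measures describe 8 arrays in 3 groups and carry no test.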

How the data were processed

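The authors deposited 1 linear intensity for each of 16317 transcript clusters on each of 8 arrays, with array medians that differ, and whether the arrays had been scaled is not known. The submitters' processing notes name the build mm8, while the sources used here do not give the background correction or probe summary. Values under 0 (1 in all) were set to 0, arrays were quantile normalized, and log2(intensity + 1) was fitted with 3 group means in limma 3.58.1 (R 4.3.3; lmFit and eBayes, two-sided, Benjamini-Hochberg over all rows, threshold 0.05). The procedure was tested on simulated data. Folds of dim rows are understated on this scale. The comparison of tumours with Gli1-FLAG GNPs equals the other tumour comparison minus that of the GNP groups. No detection p-value accompanies the values, so whether a dim row exceeds background is unknown, and precision is limited by the few arrays.

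The genes, lists and tests were chosen with earlier results of these data known. Named genes were the 9 IGF genes, per pathway class and direction up to 2 called genes of lowest p against Ptc+/- GNPs, the nearest genes in pattern (3 sought for each), and markers that moved with a result (Atoh1, Zic1, C1qc, Kdr, Dcn, Lum and Slc6a13 among them). Pax6, Neurod1, Zic2, C1qa, C1qb, Cd68, P2ry12, Csf1r, Mrc1, Olig1, Olig2, Pdgfra, Flt1 and Cdh5 were added after their values were seen. Igf2bp1 was added after its value was seen, as the only other measured gene of its class. Rows were named by the platform annotation, with 14551 rows having 1 symbol, 1146 several and 620 none. Promoter sequences are RefSeq's. Samples with the same replicate number share only the number.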

Additional observations from a re-analysis of the deposited data

How the results depend on the processing

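Replicate numbers did not pair samples. Deviations from the mean of replicates 1 and 2 of each group were correlated between same-numbered samples. The correlations were -0.011 (both GNP groups), -0.00561 (Gli1-FLAG GNPs and tumours) and -0.0728 (Ptc+/- GNPs and tumours). With a block for replicate number, under which tumours 3 and 4 have no counterpart and drop out, 3 of the 9 IGF genes passed against Ptc+/- GNPs in place of 5, and 3 in place of 4 against Gli1-FLAG GNPs, with 12 and 7 of the pathway genes, of which 10 and 4 were among the 12 and 8 called without it. With only the arrays of the groups compared, 2 IGF genes and 7 pathway genes passed against Ptc+/- GNPs. With a 2-fold minimum 6 pathway genes passed against Ptc+/- and 5 against Gli1-FLAG GNPs, and with array weights per group 14 did against Gli1-FLAG GNPs. Leaving out each array in turn gave 0 to 6 IGF genes in each tumour comparison, 2 to 16 pathway genes against Ptc+/- GNPs and 1 to 13 against Gli1-FLAG GNPs, and 0 in both sets between the GNP groups. The calls of IGF genes were kept in 66 of 90 pairs of gene and setting against Ptc+/- GNPs and 60 of 72 against Gli1-FLAG GNPs, with no change of direction.

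Differences that had not passed changed sign as follows. For Igf2 the value was 1.30 against Ptc+/- GNPs without replicate 1 (-1.69 without replicate 2) and -0.95 between GNP groups without replicate 2 (2.04 without replicate 1). For Igfbp2 against Gli1-FLAG GNPs it was -0.06 with arrays centred on their medians, -0.03 without tumour 1 and -0.12 without tumour 4 (0.21 without tumour 3). Between the GNP groups it was 0.18 for Igfbp3, 0.05 for Ghr and -0.03 for Pik3ip1 without Ptc+/- replicate 1 (-0.51, -0.18 and 0.21 without replicate 2), -0.21 for Igfbp4 without replicate 2 (0.56 without replicate 1), and 0.04 for Akt1 with arrays centred on their medians. That centring moved the median of all rows to 0.13 against Ptc+/- GNPs. Keeping 1 row per symbol, cyclic loess, the offset of 16, robust eBayes with a trend and the filter on dim rows (which removes Stc1) moved no count of IGF genes by over 1.5 times. The cause of these changes was not tested.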
